A study of Arabidopsis thaliana with 6 samples.

Results

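The genes described here were at least 2-fold higher after 3 hr at 4 °C than before the cold and at least 2-fold lower again at 24 hr, in both genotypes measured. They were selected on these signals. A gene was taken when log2 signal at 3 hr minus 0 hr was at least 1 and log2 signal at 24 hr minus 3 hr was at most -1, each in lcbk1-2 and in Columbia-0, with signals under a floor of 66 set to 66. Of 13356 genes represented by a probe set annotated to a single gene, 54 met the rule and stayed in the set. A further 2 genes, STZ and CML38, met it and were left out. Because the rise and the return chose the genes, both are given as descriptions with no test. The comparison of lcbk1-2 with wild type was not used in the choice and is tested.

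The groups were lcbk1-2 seedlings at 0 hr (22 °C), 3 hr (4 °C) and 24 hr (4 °C), and Columbia-0 wild-type seedlings at the same 3 times and temperatures, with 1 array for each. The lcbk1-2 line carries a mutation in LCBK1, a long-chain base kinase, which phosphorylates the sphingoid bases that form the backbone of sphingolipids, and it has the Columbia-0 background. All seedlings were 2 weeks old and were used whole. They had grown on half-strength MS medium with 2% sucrose in a cycle of 16 hr light at 100 µmol m-2 s-1 and 8 hr dark. The labels do not say how many seedlings were pooled on an array or at which hour of the day they were taken. No seedlings held at 22 °C for 3 or 24 hr were measured, so cold cannot be told apart from time of day or from handling. LCBK1 (AT5G23450) had 0 annotated probe sets, so its transcript did not check the genotype labels.

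Plants register chilling within minutes, through changes in membranes and a rise in cytosolic calcium, and a first wave of transcripts follows. Genes of this wave encode mainly regulators such as the CBF and ZAT transcription factors, protein kinases and ubiquitin ligases, and many of them are also induced by touch, wounding, elicitors or a shift in light. The wave fades while the products that protect cells, such as the COR proteins, go on accumulating through the first day. Of the 54 genes, 5 carried a gene symbol in the RefSeq gene table (PUB23, ARR15, BGLU40, EXPB1 and rps14). The other 49 were listed by locus, one of them, AT5G52050, with the synonym DTX50. For loci without an annotated name no role is given.

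Array median signals lay between 144 and 171, and 63.6% to 66.1% of probe sets lay above the floor on each array. Between lcbk1-2 and wild type of a given time, the correlation of log2 signals across genes, which are not independent replicates, was 0.985 to 0.986. The wild-type 0 hr array stood apart in 1 respect. Its hybridization control probe sets were 2.21 times their median on the other arrays, against 0.863 to 1.11 for the other arrays. The green-leaf markers PORB, LHCB4.2 and RCA were the 3 of 10 on the list with an annotated probe set. Their summed signal lay between 45650 and 58569 in lcbk1-2 and between 46512 and 66434 in wild type. The root markers EXPA7, EXPA18 and PYK10 were 3 of 4 and summed to 19942 to 21244 in lcbk1-2 and 17267 to 22615 in wild type. PYK10 alone had 19408 to 20924 in lcbk1-2 and 16738 to 22106 in wild type, so the root sum follows that 1 gene. Single markers moved within these sums. PORB, an enzyme of chlorophyll synthesis, fell by 0.74 at 3 hr (adjusted p = 0.0261 in limma, a call lost with a floor of 33) and rose by 0.79 after that (adjusted p = 0.0114). LHCB4.2, an antenna protein, fell by 0.51 after 3 hr (adjusted p = 0.0394), EXPA7 by 0.61 (adjusted p = 0.0431) and EXPA18 by 0.53 (adjusted p = 0.0487), and all 3 of these calls were lost with a floor of 33 or a common median. None of the 5 flower and seed markers had an annotated probe set. In whole seedlings a change in the number of cells of a type cannot be told apart from a change in RNA per cell, and the part of tissue make-up in the results was not tested.

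As a group the 54 genes went up about 4-fold and came back to where they had started. Their median signal was 226 at 0 hr, 856 at 3 hr and 218 at 24 hr in lcbk1-2, and 214, 756 and 206 in wild type. The log2 rise at 3 hr had a median of 1.92 in lcbk1-2 and 1.72 in wild type, with ranges of 1.00 to 4.69 and 1.06 to 4.98. The later fall had medians of -2.01 and -1.87, and the log2 difference between 24 hr and 0 hr had medians of -0.02 in lcbk1-2 and -0.04 in wild type. All 54 lay above the floor at 3 hr, as the rule requires. At 0 hr 7 of them lay below the floor in both genotypes, at 24 hr 6 did, and 38 were above the floor on all 6 arrays. In the fit across all 15654 features (those past the floor on 2 or more arrays), 2695 (17.2%) differed between 3 hr and 0 hr and 1455 (9.29%) were higher at 3 hr. Between 24 hr and 3 hr, 5338 features (34.1%) differed, of which 3317 (21.2% of all) were lower and 2021 higher at 24 hr. With arrays scaled to a common median 3116 of 5331 were higher, and with quantile normalization 2512 of 5158. These shares are the setting of the choice, and no count of calls among the 54 genes is read against them.

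**Figure D1:**
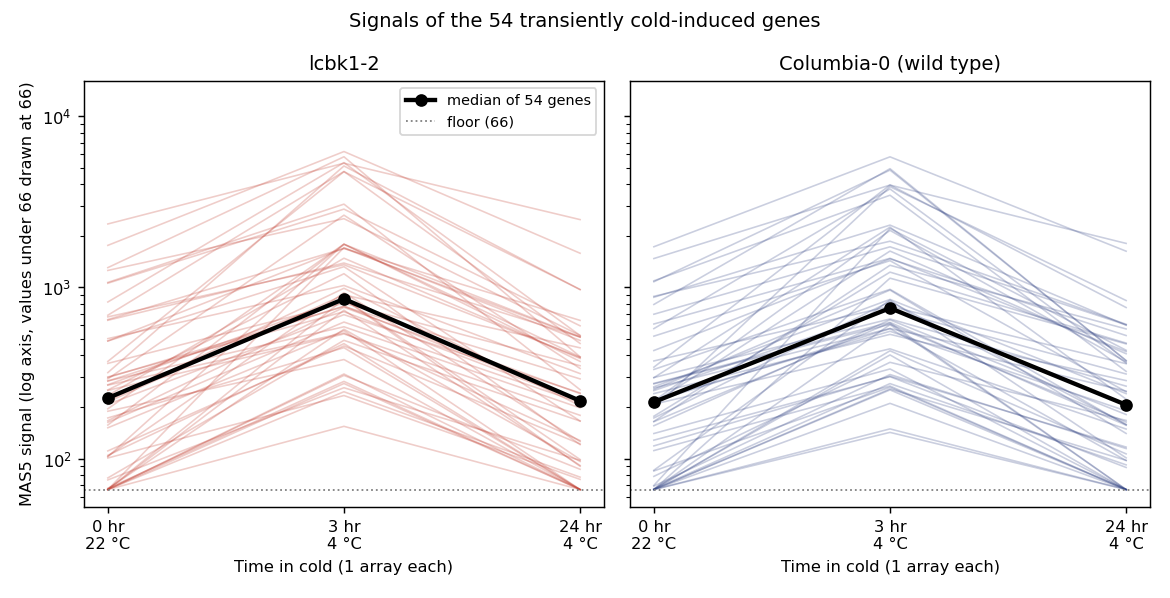
MAS5 signal on a log axis of each of the 54 genes (thin lines) and their median (black) at 0, 3 and 24 hr in lcbk1-2 (left) and wild type (right), 1 array per time, with signals under 66 drawn at 66. The medians peak at 856 in lcbk1-2 and 756 in wild type, and at 24 hr they lie at 218 and 206.

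Among the genes with a known role, PUB23, a U-box ubiquitin ligase that marks proteins for degradation, went up about 4-fold and returned close to its starting level. Its signals at 0, 3 and 24 hr were 163, 627 and 212 in lcbk1-2 and 156, 646 and 181 in wild type. The 3 hr array was the highest of its genotype, as the rule requires, and the genotypes lay close together at each time. PUB23 was the 1 member found on 17 lists of 208 loci of early cold, touch and defence regulators and of tissue markers, of which 32 loci had an annotated probe set and 31 were tested. On the list of PUB and ATL ubiquitin ligases, 5 other genes were tested, and in the limma fit 3 of them were higher and 2 lower at 3 hr (adjusted p under 0.05), beside 9.29% of all features higher. Their median log2 change at 3 hr was 0.77, beside -0.03 for all features.

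PUB19, a U-box ubiquitin ligase of stress responses, had a larger rise than PUB23 and was still high at 24 hr. Its signals were 224, 4817 and 3423 in lcbk1-2 and 187, 3075 and 2047 in wild type at 0, 3 and 24 hr. The 3 hr rise was 4.24 on the log2 scale (SE 0.17, adjusted p = 0.000197 in limma), and the 24 hr level was -0.54 from that at 3 hr (adjusted p = 0.0488), a call lost with a floor of 33 or with all arrays scaled to a common median. PUB22 and PUB24, which together with PUB23 restrain immune responses in Arabidopsis, moved apart from each other. PUB22 was higher at 3 hr by 0.77 (adjusted p = 0.0273) and PUB24 fell by 0.83 (adjusted p = 0.0137). The PUB22 call was lost with a floor of 33, and with the floor raised 2-fold PUB24 lay under it on every array and was not tested. ATL8, a RING-type ubiquitin ligase, fell by 1.11 at 3 hr (adjusted p = 0.00676) and by a further 1.25 after that (adjusted p = 0.00192), the second call being lost with the floor raised 2-fold. AT1G20823, a locus on the ATL part of the list, had the course of a transient gene and missed the rule in wild type, where its log2 fall after 3 hr was short of the required 1 by 0.0019. Its signals were 189.9, 627 and 223 in lcbk1-2 and 156, 530.1 and 265 in wild type.

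ARR15, a type-A response regulator that dampens cytokinin signalling, was near the floor before the cold, clearly above it at 3 hr and below it at 24 hr. Its signals were 67.2, 282 and 64.5 in lcbk1-2 and 84.7, 261 and 5.17 in wild type. The rise was 2.07 in lcbk1-2 and 1.62 in wild type on the log2 scale, and since both 24 hr values lay under the floor, the fall after 3 hr was by at least 4.28-fold and 3.96-fold. Of the other response regulators with a symbol of this family, RR16 (ARR16) was tested and the remaining 4 lay under the floor on every array. RR16, also type-A, had signals of 66.7, 130.1 and 75.3 in lcbk1-2 and 81.7, 174 and 68.0 in wild type. It was higher at 3 hr by 1.03 (SE 0.18, adjusted p = 0.0138 in limma) and fell by 1.07 after that (adjusted p = 0.0057). Both calls were lost with the floor raised 2-fold, where the gene was no longer tested. In lcbk1-2 RR16 met neither requirement of the rule, with a rise of 0.96 and a later change of -0.79. The families in this and the next paragraphs were picked by symbol after the members were known.

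AT5G52050 (DTX50), a multidrug and toxin extrusion carrier known as an exporter of abscisic acid, went up about 3-fold and then fell well under its starting level. Its signals were 269.8, 858 and 98.8 in lcbk1-2 and 216, 574 and 97.5 in wild type. In both genotypes the 24 hr array was the lowest of the 3. No other gene of that family had an annotated symbol here.

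BGLU40, a beta-glucosidase, an enzyme type that releases sugar from glucosides, followed a similar course. Its signals were 252, 1201 and 121 in lcbk1-2 and 254, 964 and 140.3 in wild type. The log2 difference of 24 hr minus 0 hr was -1.06 in lcbk1-2 and -0.85 in wild type. Of 10 other tested genes of the family, 0 were higher and 2 (BGLU16 and BGLU45) lower at 3 hr, beside 9.29% higher among all features. After 3 hr, 2 of the 10 fell (BGLU16 and BGLU46) and 2 rose, BGLU25 by 3.44 and BGLU42 by 0.83. Among all features 21.2% were lower and 2021 of 15654 higher after 3 hr, so these counts do not set the family apart. The 3 hr call of BGLU16 was lost with a floor of 33, and with the floor raised 2-fold the call of BGLU45 and the later one of BGLU46 were lost. No other tested beta-glucosidase was called both higher at 3 hr and lower after it.

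EXPB1, a beta-expansin, a protein that loosens cell walls, was the member nearest to the edge of the rule. Its signals were 189, 379 and 57.7 in lcbk1-2 and 119, 303 and 117 in wild type. The rise of 1.00 in lcbk1-2 exceeded the requirement by 0.0028. At 24 hr the genotypes parted: lcbk1-2 was below the floor and wild type back at its 0 hr level. EXPB3, a related gene with higher signals, did not pass the test at 3 hr (0.42, adjusted p = 0.102), and it fell by 2.30 after 3 hr (SE 0.15, adjusted p = 0.000242 in limma).

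rps14, the chloroplast gene for ribosomal protein S14 of the small subunit, was the only one of the 54 not encoded in the nucleus. Its signals were 66.7, 569 and 96.2 in lcbk1-2 and 39.5, 255 and 97.7 in wild type. The wild-type 0 hr value lay under the floor, so the rise there was at least 3.87-fold, and in lcbk1-2 it was 8.53-fold. Of 67 other tested genes of the chloroplast genome, 19 were higher and 0 lower at 3 hr in limma, beside 9.29% higher among all features, with a median log2 change of 0.45. After 3 hr, 2 of the 67 fell, rps18 and rpl33, beside 21.2% lower among all features. rbcL, the gene for the large subunit of Rubisco, was higher at 3 hr and was not called lower after it, with signals of 2854, 9534 and 8421 in lcbk1-2 and 2306, 8526 and 8255 in wild type.

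The strongest transient rises belonged to loci with no annotated name. AT1G70420 had the largest mean rise with the floor at 66, with signals of 103, 1785 and 392.1 in lcbk1-2 and 69.8, 2207 and 429 in wild type at 0, 3 and 24 hr. AT4G27657 was below the floor before the cold in both genotypes and had 49.3, 1706 and 489.6 in lcbk1-2 and 61.7, 1131 and 467 in wild type. With a floor of 33 its mean log2 rise was 4.66, above the 4.55 of AT1G70420. AT4G27652 was brighter, at 318, 5109 and 969.7 in lcbk1-2 and 197, 3868 and 837 in wild type. For these 3 genes the 3 hr signal was 16.1 to 31.6 times the 0 hr signal, the folds of AT4G27657 being lower bounds, and at 24 hr each still stood above 0 hr. AT3G04640 had signals of 369, 4733 and 971 in lcbk1-2 and 342, 3956 and 762 in wild type, and AT3G23170 of 157, 1784 and 514 in lcbk1-2 and 165, 1345 and 572 in wild type. These 5, with AT2G17660, AT5G50450 and AT5G17350, were the 8 genes that went up at least 8-fold in both genotypes with the floor at 66. For genes under the floor at 0 hr, such as AT2G27420, the fold is a lower bound, so the count could be higher.

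Among these, AT2G17660 and AT5G17350 came nearly all the way back. AT2G17660 had signals of 39.8, 854 and 90.3 in lcbk1-2 and 32.3, 606 and 33.2 in wild type, with both 0 hr arrays and the wild-type 24 hr array under the floor. AT5G17350 had 103, 931 and 126 in lcbk1-2 and 85.6, 843 and 101 in wild type. AT5G50450 undid most of its rise, with 195, 1788 and 369 in lcbk1-2 and 217, 2149 and 367 in wild type. Its 24 hr signals stayed above those at 0 hr in both genotypes, by 0.92 and 0.76 on the log2 scale.

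In all, 19 genes rose at least 4-fold in both genotypes at this floor, those above included. AT1G74450 and AT1G18740 were bright at every time and ended below their starting level. AT1G74450 had signals of 687, 4745 and 470.2 in lcbk1-2 and 574, 3752 and 361 in wild type, and AT1G18740 of 821, 5343 and 523 in lcbk1-2 and 794, 4926 and 373 in wild type. AT4G29780 had 292, 2637 and 336 in lcbk1-2 and 297, 2245 and 222 in wild type. In wild type its 24 hr signal lay under that at 0 hr, and in lcbk1-2 above it. AT1G25400 kept part of its rise, at 233, 1479 and 384 in lcbk1-2 and 212, 1627 and 409.6 in wild type. AT2G27420 was under the floor at 0 hr in both genotypes and had 37.7, 735 and 91.2 in lcbk1-2 and 36.6, 426 and 107 in wild type, so its folds of 11.1 in lcbk1-2 and 6.45 in wild type are lower bounds.

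The remaining genes of this group were fainter or rose less. AT2G41640 had signals of 167, 764 and 239.6 in lcbk1-2 and 173, 826 and 159 in wild type. AT5G15240 stayed faint throughout, at 52.7, 306 and 86.7 in lcbk1-2 and 69.1, 309.7 and 115 in wild type. AT4G27654, AT1G06980 and AT2G36630 were at least 4.1, 4.63 and 4.22 times higher at 3 hr in the genotype with the smaller rise. The other members did not reach 4-fold in both genotypes with the floor at 66. For rps14, AT5G45630, AT5G38700, AT1G33760 and AT1G72920, whose 0 hr signal lay under the floor wherever they fell short, the fold is a lower bound and the true rise may be larger.

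The genes differed in where they ended at 24 hr. The share of the log2 rise that was undone by 24 hr had a median of 101% in lcbk1-2, with a range of 38.4% to 251%, and of 103% in wild type, with a range of 31.1% to 206%. It was over 100% in both genotypes for 24 genes, under 100% in both for 16, and neither for 14. Some of these shares, and so the counts, are set by the floor. AT5G45630, AT1G33760 and AT1G72920 were at 100% in both genotypes because 0 and 24 hr lay under the floor. AT2G17660 and AT5G38700 were so in wild type. The 251% of EXPB1 in lcbk1-2 is a lower bound, since its 24 hr signal lay under the floor. The 38.4% and 31.1% of AT4G27657 are upper bounds, since its 0 hr signals lay under the floor. At 24 hr 34 genes were within 2-fold of 0 hr in both genotypes, 7 were at least 2-fold above in both, 5 were at least 2-fold below in both, and 8 passed 2-fold in 1 genotype. Among all features tested, 7.65% were at least 2-fold above and 9.4% at least 2-fold below in both genotypes. The rule used both differences that add up to this one, so the counts are a description.

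The 7 genes that stayed up were AT4G27657, AT1G70420, AT3G23170, AT4G27652, AT2G36630, AT3G04640 and AT1G06980. AT4G27657 kept the most, its 24 hr signal being at least 7.25 times that at 0 hr on average over the genotypes, since 0 hr lay under the floor. AT2G36630 had signals of 214, 904 and 443 in lcbk1-2 and 177, 1226 and 472 in wild type, and AT1G06980 of 77.2, 490.4 and 166 in lcbk1-2 and 78.8, 365 and 167 in wild type. For both, the 24 hr array lay between the 0 hr and the 3 hr array in each genotype, as the choice of these genes requires.

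The 5 genes that ended low included some of the brightest. AT1G55960 had signals of 1303, 5781 and 393 in lcbk1-2 and 1078, 4832 and 374 in wild type at 0, 3 and 24 hr, and AT5G11070 of 1068, 3059 and 252 in lcbk1-2 and 1092, 3448 and 323 in wild type. AT5G11070 ended -2.08 from its 0 hr level in lcbk1-2 and -1.76 in wild type on the log2 scale, the lowest mean with the floor at 66. AT5G21100 had 486, 1319.6 and 166 in lcbk1-2 and 332, 973 and 157 in wild type. AT5G51390 had 173, 444 and 35.1 in lcbk1-2 and 164, 619.9 and 26.4 in wild type, with both 24 hr values under the floor, so its drop is a lower bound. With a floor of 33 its mean difference was -2.31, below the -1.92 of AT5G11070. AT5G52050 was the remaining gene. In every one of these the 24 hr array was the lowest and the 3 hr array the highest of its genotype, as the choice of these genes requires. The count was 3 where all arrays were scaled to a common median, with quantile normalization, or with the floor raised 2-fold. It was 6 with a floor of 33.

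The 8 genes that passed the 2-fold mark in 1 genotype all did so downwards. In lcbk1-2 they were BGLU40, AT5G28630, EXPB1, AT1G29530 and AT3G52360, and in wild type AT1G18740, AT1G13650 and AT2G27080. EXPB1 differed most, with -1.52 in lcbk1-2 and -0.02 in wild type. AT1G13650 had signals of 105, 469 and 18.2 in lcbk1-2 and 140.2, 334 and 5.47 in wild type, and both 24 hr arrays were under the floor. Its log2 difference of -0.66 in lcbk1-2 is therefore a bound, and its signals fell more than 2-fold below 0 hr in both genotypes. With a floor of 33 its mean difference was -1.88. AT5G28630 had 151, 558 and 55.1 in lcbk1-2 and 128, 301 and 88.8 in wild type. The differences between genotypes at 24 hr rest on 1 array against 1 and were not tested.

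**Figure D2:**
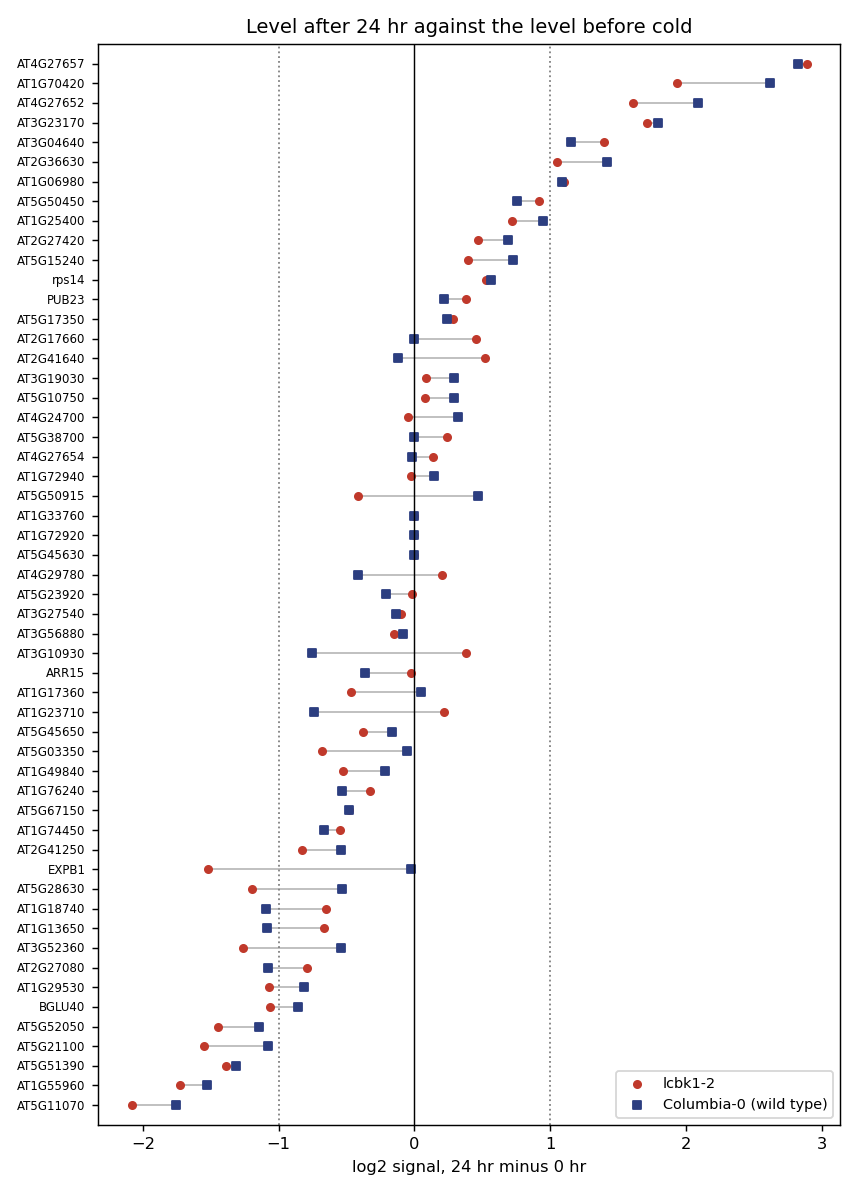
Difference of log2 signal at 24 hr minus 0 hr for the 54 genes, each with a point for lcbk1-2 (circle) and for wild type (square), ordered by the mean of both, with dotted lines at 2-fold. With the floor at 66, AT4G27657 is at the top and AT5G11070 at the bottom (with a floor of 33, AT5G51390 lies lower), and 34 genes lie between the dotted lines in both genotypes.

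Some genes near the middle of the set ended close to their 0 hr level. AT3G56880, the brightest at 3 hr, had signals of 1758, 6203 and 1581 in lcbk1-2 and 1725, 5776 and 1625 in wild type. AT3G27540 had 218, 987 and 204 in lcbk1-2 and 263, 850.2 and 239.6 in wild type. AT5G38700 had 52.8, 246 and 78.0 in lcbk1-2 and 45.8, 252 and 34.6 in wild type. Both of its 0 hr signals and its wild-type 24 hr signal lay under the floor, so how closely it returned cannot be read. AT5G45630 and AT1G33760 were under the floor at 0 and 24 hr in both genotypes and above it at 3 hr. How fully they returned below the floor cannot be read from these signals. AT5G45630 had 11.2, 312 and 44.9 in lcbk1-2 and 27.9, 210.3 and 51.4 in wild type. AT1G33760 had 5.90, 274 and 1.94 in lcbk1-2 and 1.34, 149 and 2.51 in wild type, and its lcbk1-2 3 hr signal was the higher. AT1G72920 also appeared at 3 hr alone, at 154 in lcbk1-2 and 142 in wild type, the lowest 3 hr signals of the set in each genotype. The members AT5G10750, AT5G50915, AT3G10930, AT1G23710, AT2G41250, AT4G24700, AT5G23920, AT5G45650, AT1G17360, AT1G76240, AT1G49840, AT5G67150 and AT5G03350 also ended within 2-fold of 0 hr. Their 3 hr signals ran between 234 (AT5G50915) and 2861 (AT2G41250), both in lcbk1-2. Their log2 rises lay between 1.03 (AT5G03350 in lcbk1-2) and 2.05 (AT5G50915 in wild type). For AT3G10930 in wild type the end level is a bound, since its 24 hr signal of 34.0 lay under the floor, against 111 at 0 hr.

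At the edge of the rule, the nearest members inside were EXPB1, AT3G52360, AT1G72940, AT2G27080 and AT1G29530, which met their tightest requirement by 0.0028 to 0.0115 on the log2 scale. The nearest outside were AT1G20823, CYP71B36, AT5G10695, AT1G32780 and AT5G06790, which missed it by 0.0019 to 0.0108. AT3G52360, inside, had signals of 1255, 2516 and 524 in lcbk1-2 and 886, 1858 and 609 in wild type. AT5G10695, outside, had 429.6, 1355 and 680.3 in lcbk1-2 and 341, 1129 and 525 in wild type. The set would hold 84 genes at log2 changes of 0.8 and 22 at 1.5.

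Set against the other genes that went up early, a fall of at least 2-fold after 3 hr was a minority course. Leaving out STZ and the CML genes, of 227 single-gene probe sets at least 2-fold up at 3 hr in both genotypes, 54 (23.8%) fell at least 2-fold again in both, and 19 fell so in 1 genotype. Another 111 (48.9%) stayed within 2-fold of their 3 hr level, 25 (11.01%) rose at least 2-fold further in both, and 18 did so in 1 genotype. The median signal of the other 173 genes was 185 at 0 hr, 658 at 3 hr and 853 at 24 hr in lcbk1-2, and 176, 549 and 744 in wild type. Their starting and 3 hr levels were near those of the transient genes, and their 24 hr levels were higher.

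**Figure D3:**
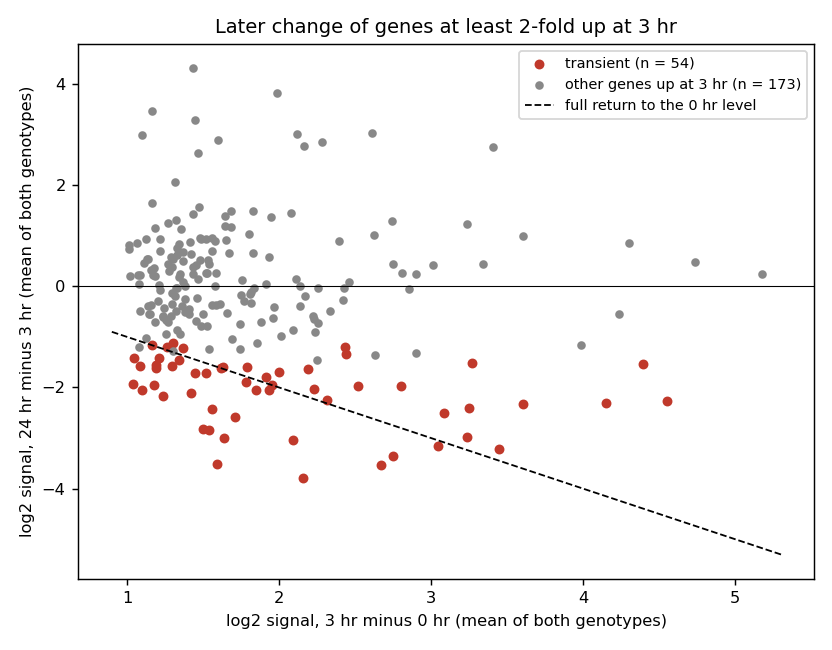
Log2 signal at 24 hr minus 3 hr against log2 signal at 3 hr minus 0 hr, means of both genotypes, for the 54 transient genes (red) and the 173 other genes at least 2-fold up at 3 hr (grey). Red points on the dashed line returned to their 0 hr level, or lay under the floor at both 0 hr and 24 hr. The 7 genes that stayed up lie at least 1 above it.

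The mirror course was rare. Of 122 genes at least 2-fold down at 3 hr in both genotypes, 2 (1.64%) rose at least 2-fold again by 24 hr, AT1G14200 and AT3G17110. AT1G14200 had signals of 527, 106 and 354 in lcbk1-2 and 450.5, 98.6 and 340.0 in wild type. Scaling all arrays to a common median moved the median of all features at 24 hr minus 3 hr by 0.18. With it, 42 of 210 genes up at 3 hr fell at least 2-fold again, and 3 of 126 (2.38%) down at 3 hr rose at least 2-fold again.

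The lists of cold regulators give the setting of the early wave. STZ, a zinc-finger repressor of the first wave, was the 1 tested gene of its list, with signals of 339, 5741 and 1795 in lcbk1-2 and 317, 5029.7 and 1366 in wild type. Its course was that of the strongest transient genes that stayed up. The late COR effectors kept rising. All 6 tested (COR15A, COR15B, COR47, LTI30, COR27 and AT4G33980) were higher at 3 hr and rose again after it in limma, beside 9.29% higher at 3 hr among all features, with medians of 1.23 and 3.15 on the log2 scale. COR15A, a chloroplast protein that protects membranes on freezing, had signals of 891, 2537 and 33884 in lcbk1-2 and 494, 1267 and 37229 in wild type. The 3 hr calls of COR27 and AT4G33980 were lost with the floor raised 2-fold, and those of COR15A, COR47, LTI30 and COR27 with a floor of 33, where their adjusted p lay between 0.051 and 0.079.

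None of 6 tested upstream regulators of the CBF genes was higher at 3 hr, beside 9.29% of all features. With 6 genes this is too few to read as a difference. EIN3, a transcription factor of ethylene signalling, fell by 0.73 (adjusted p = 0.0172), and AT1G67310 by 0.65 (adjusted p = 0.0311), a call lost with a floor of 33. Of the WRKY and VQ proteins, 3 were tested and none passed at 3 hr, beside 17.2% of all features, again too few genes to compare. WRKY6, a transcription factor linked to senescence and phosphate supply, was higher at 24 hr than at 3 hr by 1.49 (adjusted p = 0.00172), and WRKY22, a factor of immune signalling, fell by 1.18 (adjusted p = 0.00925). The touch-linked enzymes XTH18 and XTH19, which remodel xyloglucan, and OPCL1 of jasmonate synthesis did not pass the test at 3 hr, with 0.56 (adjusted p = 0.15), 0.73 (adjusted p = 0.057) and 0.28 (adjusted p = 0.271). The other 8 lists had no gene on a tested, annotated probe set. The fit had 2 residual degrees of freedom, so these p-values rest on the agreement of the genotypes and not on replicates. With either 24 hr array left out, no feature was called at 3 hr.

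The test left for the 54 genes is that of genotype, and it made no call among them. In the additive limma fit, which shares 1 difference between the genotypes over the 3 times, 0 of the 54 were called for lcbk1-2 against wild type at an adjusted p under 0.05. Among all features 2 of 15654 (0.0128%) were called, neither with an annotated gene. At an unadjusted p under 0.05 stood 6 of the 54 (11.1%) and 1294 of all features (8.27%). AT3G19030 had the lowest adjusted p of the 54 in limma, 0.389, with a difference of 0.52 on the log2 scale (SE 0.11). Its signals were 2343, 5302 and 2485 in lcbk1-2 and 1472, 3953 and 1804 in wild type, so that lcbk1-2 was higher at each of the 3 times.

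The largest fitted differences of the 54 belonged to AT4G27654, AT3G19030, AT4G27652, rps14 and AT5G21100, all with lcbk1-2 higher. AT4G27654 had signals of 111, 455 and 122 in lcbk1-2 and 66.7, 403 and 60.4 in wild type and a difference of 0.60 (SE 0.16, adjusted p = 0.465 in limma). AT4G27652 differed by 0.44 (SE 0.13), rps14 by 0.38 (SE 0.24) and AT5G21100 by 0.36 (SE 0.13), with adjusted p between 0.517 and 0.696. For these genes other than rps14, lcbk1-2 was the higher genotype at 0, 3 and 24 hr. rps14 was higher in lcbk1-2 at 3 hr and close to wild type at 24 hr. None of the fitted differences reached 2-fold.

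Time by time, most of the 54 genes peaked somewhat higher in lcbk1-2. At 3 hr lcbk1-2 was above wild type for 38 and below for 16, or 70.4% above, beside 51.7% of all features, and the median log2 difference was 0.22, beside 0.01 for all features. At 0 hr it was above for 31 and below for 16 (57.4%, beside 48.4% of all features), with a median of 0.07. At 24 hr it was above for 26 and below for 22 (48.1%, beside 47.1%), with a median of 0.00. The remaining genes at 0 and 24 hr lay under the floor in both genotypes. These are single arrays, so a difference between 2 arrays cannot be told apart from a difference between genotypes, and no p is given for the group.

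The higher 3 hr level in lcbk1-2 was also seen in other early genes. Among the 173 other genes up at 3 hr, lcbk1-2 was above wild type for 134 (77.5%), with a median log2 difference of 0.19. At 0 hr and 24 hr their medians were 0.10 and 0.09. The rise from 0 to 3 hr was larger in lcbk1-2 for 30 of the 54 genes, beside 8017 of all 15654 features, a share close to it. The choice of genes also bears on the size of the difference. With the rule applied to lcbk1-2 alone, the 89 genes found had a median 3 hr difference of 0.30, and with wild type alone the 76 found had 0.11. Scaled to a common median it was 0.15 for the 54 genes.

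rps14 was the 1 gene of the 54 (beside 0.434% of all features) at least 2-fold higher in lcbk1-2 at 3 hr, with 569 in lcbk1-2 and 255 in wild type. AT5G28630, AT1G33760 and AT2G27420 followed, with log2 differences of 0.89, 0.88 and 0.79. On the other side, AT5G51390 and AT2G36630 were lower in lcbk1-2 at 3 hr, at -0.48 and -0.44. With the floor at 66, none of the 54 was 2-fold lower in lcbk1-2 at any time. For EXPB1 at 24 hr this is a bound, since its lcbk1-2 signal of 57.7 lay under the floor, against 117 in wild type.

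**Figure D4:**
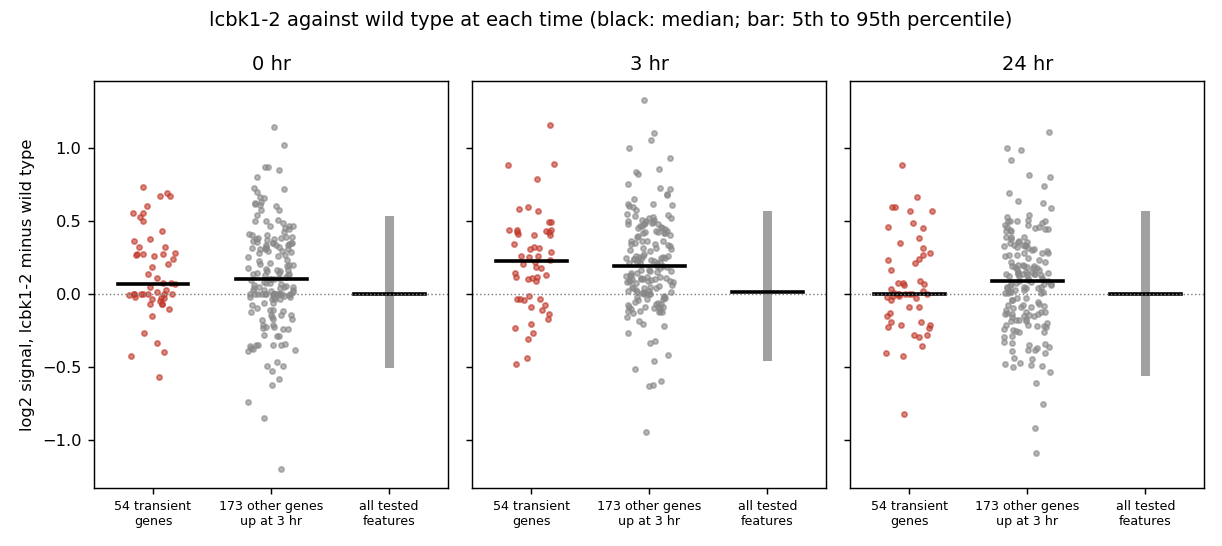
Log2 signal of lcbk1-2 minus wild type at 0, 3 and 24 hr, 1 array against 1, for the 54 transient genes (red), the 173 other genes up at 3 hr (grey) and all tested features (bar from the 5th to the 95th percentile), with medians in black. At 3 hr the medians are 0.22, 0.19 and 0.01.

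Most genes that met the rule in 1 genotype came close to it in the other. The rule was met in lcbk1-2 alone by 35 genes and in wild type alone by 22. Of the 35, 24 missed it in wild type by at most 0.5 on the log2 scale, and of the 22, 18 missed it in lcbk1-2 by no more than that. In lcbk1-2 AT1G52000 had a log2 rise of 2.13, against 0.65 in wild type, with signals of 78.2, 342 and 35.4 in lcbk1-2 and 87.3, 137 and 33.2 in wild type. AT2G23270 had no rise above the floor in lcbk1-2, against a rise of 1.33 in wild type, where it had signals of 61.4, 166 and 29.5. These genes, with AT1G50590 (log2 rises of 1.13 in lcbk1-2 and -0.39 in wild type) and AT1G74300 (0.30 and 1.38), were picked after their values were seen, for their wide gaps, and no gap was tested.

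The genes sat on all 5 chromosomes, with 17, 8, 7, 5 and 16 on chromosomes 1 to 5, and some lay side by side. In the RefSeq gene order of TAIR10.1, AT4G27652, AT4G27654 and AT4G27657 were direct neighbours with no annotated gene between them. AT4G27652 and AT4G27657 were among the 3 strongest rises and stayed up at 24 hr, while AT4G27654, between them, went up about 4-fold in lcbk1-2 and 6-fold in wild type and returned. AT1G72920 and AT1G72940 had 2 genes between them, neither with an annotated probe set. AT5G45630 and AT5G45650 had 1 between them, AT5G45640, whose signals of 0.81, 3.13 and 11.2 in lcbk1-2 and 73.0, 29.8 and 8.03 in wild type were at or near the floor throughout. Of 53 nuclear members 7 (13.2%) had another member within 5 genes, and of 170 placed genes among the others up at 3 hr, 6 (3.53%) had another of that group so near. Shared probe sequence or overlapping transcripts of neighbours were not examined, so their values may not be independent.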

How the data were processed

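Transcript levels were measured on ATH1 arrays, which hold probe sets for Arabidopsis thaliana genes. Each probe set had 1 linear intensity on every array, deposited by the authors, and their processing notes name MAS5 as the tool. Its version is not given in the sources used here. The 2% trimmed mean was 500.05 to 500.06 on all 6 arrays, so the arrays had been scaled alike before deposit. Of 22810 features, 64 were controls. Of the rest, 13513 were annotated to a single gene (13436 matched a locus of the RefSeq table, TAIR10.1), 503 to several and 8730 to none. A gene with several probe sets kept its brightest on average, which left 22589 features. Signals under 66 (35.0% of values) were set to 66 and log2 was taken.

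limma 3.58.1 in R 4.3.3 fitted genotype and time as additive terms, two-sided, with Benjamini-Hochberg adjustment over 15654 features, those past the floor on 2 or more arrays, and a threshold of 0.05. The fit had 2 residual degrees of freedom and 4.19 prior degrees of freedom (prior SD 0.158). The fit was tested on simulated data with independent noise and a constant genotype effect. These data had no time effect, no unequal cold response and no floor, so that test does not bear on the following limits. Since no group had replicates, the error of the fit mixes the noise of arrays with unequal cold responses of the genotypes. That error can be too small for genes at the floor. The number of arrays limits the precision.

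The members, the gene lists and the rule for named genes were chosen with earlier results of these data known. The rule names the 25 largest mean rises, the 8 lowest and 8 highest levels at 24 hr against 0 hr, members on the lists or with a symbol, the 5 largest genotype differences and the 5 genes nearest to the thresholds on each side, and outside the set the tested genes of the lists. Families and genes beyond it were picked after their values were seen. Promoter sequences were not used here, and no coordinates are given.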

Additional observations from a re-analysis of the deposited data

Results flagged for a closer look

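For 9 of the 54 genes the 24 hr signal stood on opposite sides of the 0 hr signal in the 2 genotypes. Each genotype has 1 array per time, and the difference was not tested. Values are log2 signal at 24 hr minus 0 hr. Those above 0 hr in lcbk1-2 and below it in wild type were AT3G10930 (0.38 in lcbk1-2 and -0.76 in wild type), AT1G23710 (0.22 and -0.74), AT2G41640 (0.52 and -0.12), AT4G29780 (0.2 and -0.42) and AT4G27654 (0.14 and -0.01). Those below in lcbk1-2 and above in wild type were AT5G50915 (-0.41 in lcbk1-2 and 0.47 in wild type), AT1G17360 (-0.47 and 0.05), AT4G24700 (-0.04 and 0.32) and AT1G72940 (-0.03 and 0.14). AT3G10930 had the widest gap, at least 1.13. Its wild-type value of -0.76 is a bound, since its 24 hr signal of 34.0 lay under the floor. Against 111 at 0 hr, that signal was more than 2-fold lower. The wild-type value of AT4G27654 is also a bound, since its 24 hr signal of 60.4 lay under the floor. With signals under the floor set to the floor, none of the 9 was 2-fold away from its 0 hr level in either genotype.

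Outside the single-gene probe sets, 68 tested probe sets with no annotated gene had the same course, of 265 unnamed ones that were at least 2-fold up at 3 hr in both genotypes (25.7%). Their median log2 rise was 1.73 in lcbk1-2 and 1.64 in wild type, and at 24 hr their medians stood 0.04 and -0.02 from 0 hr. At 3 hr lcbk1-2 was above wild type for 56 of the 68, with a median log2 difference of 0.18. The share above was 51.7% of all features and 77.5% of the 173 other single-gene probe sets up at 3 hr. This is 1 array against 1 and was not tested. A further 3 probe sets that the annotation assigns to several genes also met the rule.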

How the results depend on the processing

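At 3 hr against 0 hr, 2695 features were called, 1658 with a floor of 33, 120 with no filter on low signals, and 0 to 532 with 1 array left out. It was 0 without either 24 hr array, 3 without lcbk1-2 0 hr, 24 without wild-type 0 hr, 267 without lcbk1-2 3 hr and 532 without wild-type 3 hr. Without a 24 hr array 4854 features had an unadjusted p under 0.05 in limma. At 24 hr against 3 hr, 5338 were called, 1583 with no filter and 1085 to 3950 with 1 array left out (1085 without lcbk1-2 24 hr, 1297 without wild-type 24 hr, 2304 without lcbk1-2 3 hr and 2242 without wild-type 3 hr). Of these calls 2021 were higher at 24 hr, 3116 after scaling to a common median and 2512 after quantile normalization. For genotype 2 were called, 0 with the floor raised 2-fold (1173 at an unadjusted p under 0.05), 1 with a floor of 33, 0 with no filter (1482 unadjusted) and 0 with any 1 array left out (851 to 1062 unadjusted). The set held 84 genes at log2 changes of 0.8, 22 at 1.5, 89 with the rule in lcbk1-2 alone, and 125 with unnamed and several-gene probe sets included, the last chosen after seeing the data. The 5 genes at least 2-fold below 0 hr became 3 with the floor raised 2-fold, with quantile normalization and with a common median. They became 6 with a floor of 33, where the 7 at least 2-fold above became 8. Leaving out an array leaves fewer samples, and for the other settings the cause was not tested. Rises and falls of members were also taken under other floors, scalings or probe set means, 540 values in all. Of these, 92 moved by more than the standard deviation of the 2 genotypes, and 0 reversed. Since the members were chosen for changes of at least 2-fold, a reversal could hardly occur. No paired analysis was possible because there are no replicates to pair by number, each genotype and time having 1 array. The additive fit itself sets the genotypes against each other within each time. The planned count of promoter motifs was not run. Signals near the floor limit 16 members, which were not above it on all 6 arrays.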
